A study of Homo sapiens with 6 samples.

Results

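The RBMS family consists of 3 human genes, RBMS1, RBMS2 and RBMS3, and was followed here in A549 cells depleted of NME2. Every probe set that the platform annotation assigns to exactly 1 of these symbols was taken, which gave 3 of 19775 genes with such a probe set and 19 of the 54613 probe sets used. On these arrays a transcript is read by a set of short oligonucleotides, the probe set, and a gene can have several. RBMS3 had 7 probe sets, RBMS1 had 6 and RBMS2 had 6. The family was chosen by the signal difference of RBMS3 between these same groups, so its values in this contrast are a description, and the count of its probe sets past a threshold is no independent evidence. A549 is an established line of lung adenocarcinoma cells. Messenger RNA was measured on 6 oligonucleotide arrays, 3 from cells transiently given siRNA against NME2 (NME2-depleted) and 3 from cells given control siRNA duplexes (control), with no other treatment named in the labels. NME2 is a nucleoside diphosphate kinase that also binds DNA, and the series asked which transcripts change when it is silenced. Separate cultures are not described for the replicates, so errors and p-values measure only the spread between these samples, which may be technical.

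RBMS proteins carry a pair of RNA recognition motifs and bind single-stranded RNA or DNA. RBMS1, also called MSSP, was described through its binding to a sequence upstream of the MYC gene, and it binds AU-rich stretches in the untranslated ends of messenger RNAs. RBMS2 is the closely related SCR3 protein and has been reported to stabilise the messenger of the cell cycle inhibitor CDKN1A. RBMS3 is a mainly cytoplasmic member, known from hepatic stellate cells, where it stabilises the messenger of the homeobox factor PRRX1, and its loss has been reported in several carcinomas.

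The targeted gene was far lower in the arrays labelled NME2-depleted. The probe set for NME2, which it shares with the read-through transcript NME1-NME2, had signals of 1920.4, 3675.9 and 3215.7 in NME2-depleted arrays, against 17861.6, 19388.9 and 21044.5 in control arrays, a log2 difference of -2.78 (SE 0.19, limma adjusted p = 0.00032). Of 7 epithelial and A549 markers 0 passed the test, and KRT18, KRT7, AKR1B10, AKR1C1 and ALDH1A1 were at 23450.9 or more on every array. KRT8 was also bright, at 14198.8 to 16303.1 in NME2-depleted arrays and 16809.7 to 18803.2 in control arrays, with groups apart (log2 difference -0.24, limma adjusted p = 0.209). EPCAM was dimmer, at 547.1 to 836.9 in NME2-depleted arrays and 380.9 to 455 in control arrays, and its groups were apart the other way (0.71, limma adjusted p = 0.0884). The defining leukocyte marker PTPRC and the endothelial markers CDH5 and VWF were at most 34.2. KDR, TEK and LYZ, also under the filter used below, reached 50.7, 40.5 and 34.5 on their highest array. PECAM1, CD14 and CD3E reached 252, 349.5 and 120.1. All of these markers had overlapping groups. Median array signals lay between 75.7 and 85.2, the highest being that of NME2-depleted replicate 3. The ratio of 3' to 5' signal for ACTB, a sign of RNA quality, was 1.33 to 1.40 in NME2-depleted arrays and 1.20 to 1.30 in control arrays, without overlap. The same ratio for GAPDH was 0.98 to 1.06 in NME2-depleted arrays and 0.97 to 1.02 in control arrays, which overlapped. The part of RNA quality in the differences below was not tested.

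The sequence windows taken before 1 annotated start of each gene differed in composition. They are shown as background, because NME2 is a DNA-binding protein. Whether NME2 binds them, or has a part in any signal difference below, was not tested. Each sequence is the 250 bases before the start given by RefSeq (GRCh38.p14), with capitals marking matches to GGGCGG on either strand. RBMS3 lies at chr3:29280821-29281070 (plus strand), RBMS1 at chr2:160493808-160494057 (minus strand) and RBMS2 at chr12:56521570-56521819 (plus strand).
RBMS3: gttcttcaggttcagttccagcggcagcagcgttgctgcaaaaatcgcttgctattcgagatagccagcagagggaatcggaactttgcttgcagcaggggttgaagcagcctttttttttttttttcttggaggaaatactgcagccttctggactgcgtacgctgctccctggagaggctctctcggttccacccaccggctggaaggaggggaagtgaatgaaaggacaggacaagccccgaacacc
RBMS1: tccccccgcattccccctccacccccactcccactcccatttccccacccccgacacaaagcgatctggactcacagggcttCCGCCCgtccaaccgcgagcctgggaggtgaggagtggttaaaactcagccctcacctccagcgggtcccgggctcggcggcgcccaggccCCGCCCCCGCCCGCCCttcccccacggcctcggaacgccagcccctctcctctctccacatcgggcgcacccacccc
RBMS2: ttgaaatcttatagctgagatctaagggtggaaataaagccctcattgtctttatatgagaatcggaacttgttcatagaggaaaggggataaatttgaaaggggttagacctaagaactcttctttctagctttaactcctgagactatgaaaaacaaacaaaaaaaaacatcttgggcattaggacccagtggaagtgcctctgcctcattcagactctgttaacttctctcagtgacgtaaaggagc
The GC content was 53.2% for RBMS3, 71.6% for RBMS1 and 39.2% for RBMS2. The RBMS3 and RBMS1 windows end at the outermost annotated start of their gene, whereas the RBMS2 window belongs to a start further inside. RBMS1 held 4 matches to GGGCGG, of which some overlap, and RBMS3 and RBMS2 held 0. That sequence occurs in 42.6% of 35116 promoter windows of the same length. GGGGAGGG, a run that occurs in the G-rich strand of the MYC promoter element bound by NME2, had 0 matches on either strand in all 3 windows and occurs in 12.7% of windows. CCAAT and CACGTG had 0 matches in the 3 windows, against 32% and 6.34% of all windows, and TATAAA had 1 match, in RBMS2, against 10.7% of windows. These are matches of letters and not binding sites. The longer consensus motif that the paper reports from its NME2 binding peaks was not searched for.

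RBMS3 signals were higher in NME2-depleted cells on all of its brighter probe sets. The brightest, 238447_at, had signals of 344.8, 329.2 and 350.8 in NME2-depleted arrays, against 137.8, 180.3 and 175.1 in control arrays. Every depleted array lay well above every control array, and the 3 depleted values were closer to each other than the 3 control values. The mean was 341.6 ± 11.1 in NME2-depleted cells and 164.4 ± 23.2 in control cells (SD, n = 3 each), a log2 difference of 1.06 (SE 0.17), or 2.09-fold. Each fold is the log2 difference turned back to the linear scale, and SE is the standard error from a limma fit over all probe sets that passed a brightness filter. In RNA from whole cultures, more cells with the transcript and more transcript per cell cannot be told apart.

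The next brightest RBMS3 probe sets had smaller differences in the same direction. Probe set 235570_at had 184.4, 158.5 and 228.7 in NME2-depleted arrays, against 97.5, 132.4 and 130.8 in control arrays, a log2 difference of 0.66 (SE 0.23). Probe set 206767_at had 186, 145.7 and 186.1 in NME2-depleted arrays, against 112, 107.8 and 141.2 in control arrays, a difference of 0.52 (SE 0.22). On both, NME2-depleted replicate 2 was the lowest depleted array, and on 206767_at it lay only just above control replicate 3, the highest control array. NME2-depleted replicate 3, the array with the highest median signal, was the highest depleted array on all 3 tested probe sets. Centring each array on its median left the difference of 238447_at at 1.02.

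The remaining 4 RBMS3 probe sets were too dim for the filter, a mean log2 signal equal to a signal of 71.7, and were not tested. Probe set 241789_at was just below it, with 87.3, 104.4 and 117.2 in NME2-depleted arrays, against 35.7, 68.1 and 34.1 in control arrays. Its groups did not overlap, with a log2 difference of 1.23, while its control values were themselves spread from 34.1 to 68.1. On 242137_at the values were 42, 23.7 and 66.7 in NME2-depleted arrays, against 32.4, 17 and 1.5 in control arrays, so its difference of 2.11 rests on a single control value close to the floor of 1. Probe sets 237860_at and 1560322_at had signals under 40 on all arrays, differences of 0.54 and 0.09 and overlapping groups. The 0.54 of 237860_at rests on a control value of 2.4, and its linear mean was 19.2 in NME2-depleted and 19.5 in control arrays. All 7 RBMS3 probe sets thus had a higher mean log2 signal in NME2-depleted arrays, 4 of them with groups that did not overlap. On the others the sign is not firm. Among probe sets under the filter 5.79% had groups apart with NME2-depleted higher.

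**Figure D1:**
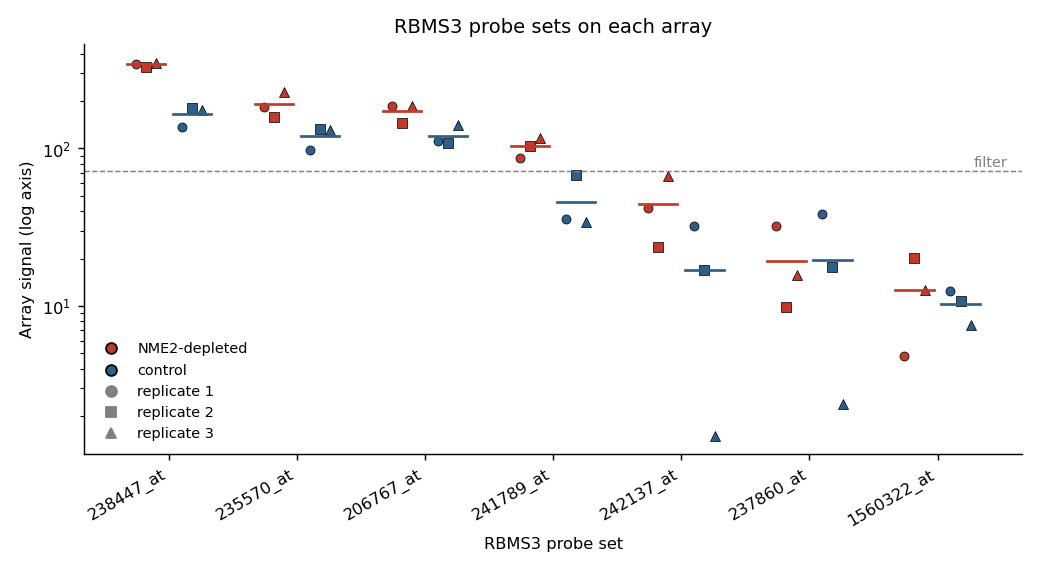
Signal of the 7 RBMS3 probe sets on each array, on a log axis, ordered by brightness, with arrays as points and the mean of each group as a bar. The 4 brightest probe sets have all depleted arrays above all control arrays, and the dashed line marks the brightness filter at a signal of 71.7.

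RBMS1 was bright on every probe set and its groups mostly overlapped. The brightest, 215127_s_at, had 4258.5, 4369.5 and 4550 in NME2-depleted arrays, against 4211.8, 3707.4 and 4170.4 in control arrays. NME2-depleted replicate 1 lay only just above control replicate 1, and the log2 difference was 0.13 (SE 0.07). The probe set 225265_at pointed the other way, with 978.2, 1075.3 and 1190.6 in NME2-depleted arrays, against 1219.3, 1165.1 and 1257.1 in control arrays, a difference of -0.17 (SE 0.10). Its groups overlapped through NME2-depleted replicate 3.

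The other 4 RBMS1 probe sets lay between these. They were 203748_x_at and 209868_s_at at -0.09 and -0.04, and 207266_x_at and 225269_s_at at 0.07 and 0.08, all with overlapping groups. Probe sets ending in _s_at or _x_at can also match other transcripts, and RBMS1 has an annotated pseudogene, RBMS1P1, so what they measure is less certain. Of the 6, only 225265_at has no such ending. By itself it gives -0.17 for the gene, and the mean of all 6 gives -0.0041, so RBMS1 has no settled direction here. The arrays of a group kept nearly the same order from probe set to probe set. NME2-depleted replicate 1 was the lowest and replicate 3 the highest depleted array on 6 of 6 probe sets, and control replicate 2 was the lowest control array on 6 of 6.

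RBMS2 was of middling brightness, and none of its 6 probe sets separated the groups. The brightest, 225776_at, had 749.2, 647.7 and 640.7 in NME2-depleted arrays, against 760.8, 623.8 and 782.5 in control arrays, a log2 difference of -0.09 (SE 0.12). The next, 34187_at, had 599, 653.5 and 658.1 in NME2-depleted arrays, against 613.9, 588.5 and 591.9 in control arrays, a difference of 0.09 (SE 0.10). These neighbouring probe sets therefore lay on opposite sides of 0, each by no more than its standard error.

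The largest RBMS2 difference was that of 225778_at, at 0.33 (SE 0.19). It had 379.3, 456.7 and 496.1 in NME2-depleted arrays, against 341, 459.5 and 278.9 in control arrays, with control replicate 2 above NME2-depleted replicates 1 and 2. Probe set 205228_at was the least steady, with 338.7, 509.7 and 439.1 in NME2-depleted arrays, against 465.4, 321.1 and 509.9 in control arrays, and its difference was -0.0025. The last pair, 235439_at and 235558_at, had differences of 0.02 and -0.14. Of the 6 probe sets 3 were higher and 3 lower, but 235439_at turned to -0.03 when arrays were centred on their medians and 205228_at changed sign after quantile normalization. The mean of the 6 was 0.03, opposite in sign to the brightest, so RBMS2 has no settled direction either.

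**Figure D2:**
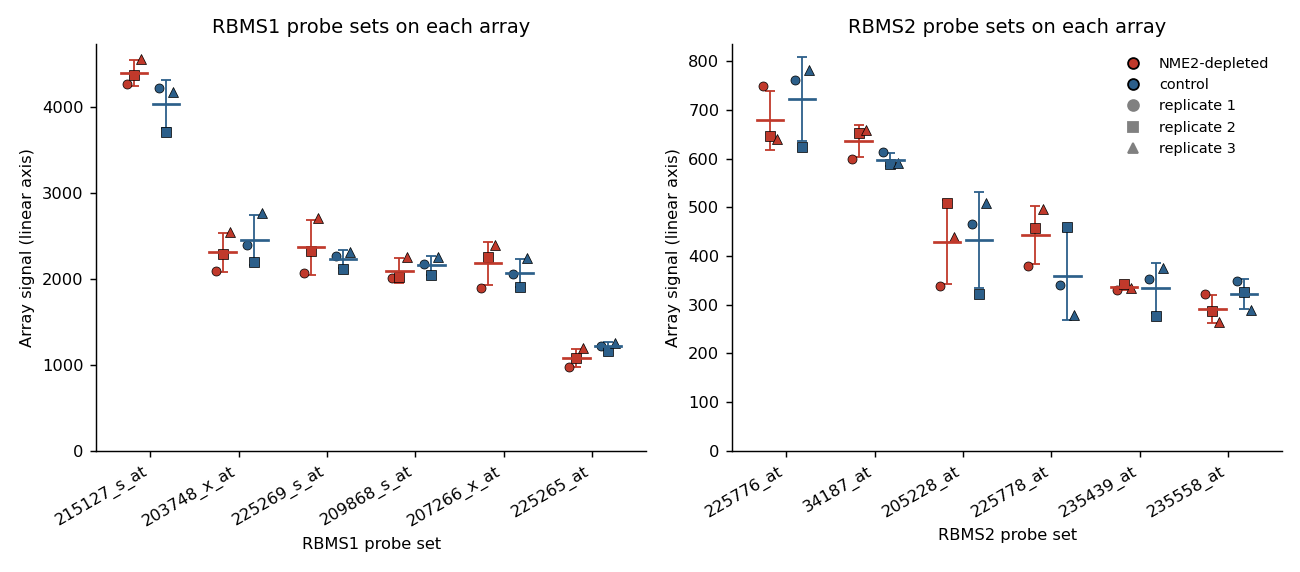
Signal of the RBMS1 (left) and RBMS2 (right) probe sets on each array, on linear axes, with arrays as points, means as horizontal bars and SD as error bars (n = 3). Only 215127_s_at, at 4258.5 to 4550 in NME2-depleted arrays and 3707.4 to 4211.8 in control arrays, has groups that do not overlap.

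Across the family 15 probe sets passed the filter, 3 of RBMS3, 6 of RBMS1 and 6 of RBMS2. In the limma fit over all 27307 tested probe sets 1 of the 15, the RBMS3 probe set 238447_at, passed an adjusted p of 0.05, where 0.396% of all tested probe sets did. Since this contrast brought RBMS3 to attention, nothing is read from that count. The call was also lost when any single array was left out, with 0 of the 15 passing, although the difference of 238447_at stayed between 0.94 and 1.14. Over all tested probe sets the calls then fell as well, from 108 to between 19 and 70. Groups did not overlap, with NME2-depleted higher, on 4 of the 15, the 3 of RBMS3 and 215127_s_at of RBMS1, where the share among all tested probe sets was 9.66%. On 0 of the 15 they were apart with NME2-depleted lower, where the share was 8.91%.

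Within each gene the tested differences spanned 0.54 for RBMS3, 0.30 for RBMS1 and 0.47 for RBMS2 on the log2 scale. Genes with at least 3 tested probe sets, 2702 in number, had a median span of 0.31, and the 162 with at least 6 had 0.48. The tested RBMS3 probe sets agreed in sign, and whether their sizes differed beyond the standard errors was not tested. Among the 2702 genes 36.6% had the same sign on all tested probe sets. In 18 genes, or 0.666%, RBMS3 among them, every tested probe set was higher with groups apart. RBMS3 was chosen by this same contrast, so nothing is read from its place there. Fewer probe sets also make the condition easier to meet. RBMS3 had 3 tested, while 0 of the 162 genes with at least 6 met it.

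**Figure D3:**
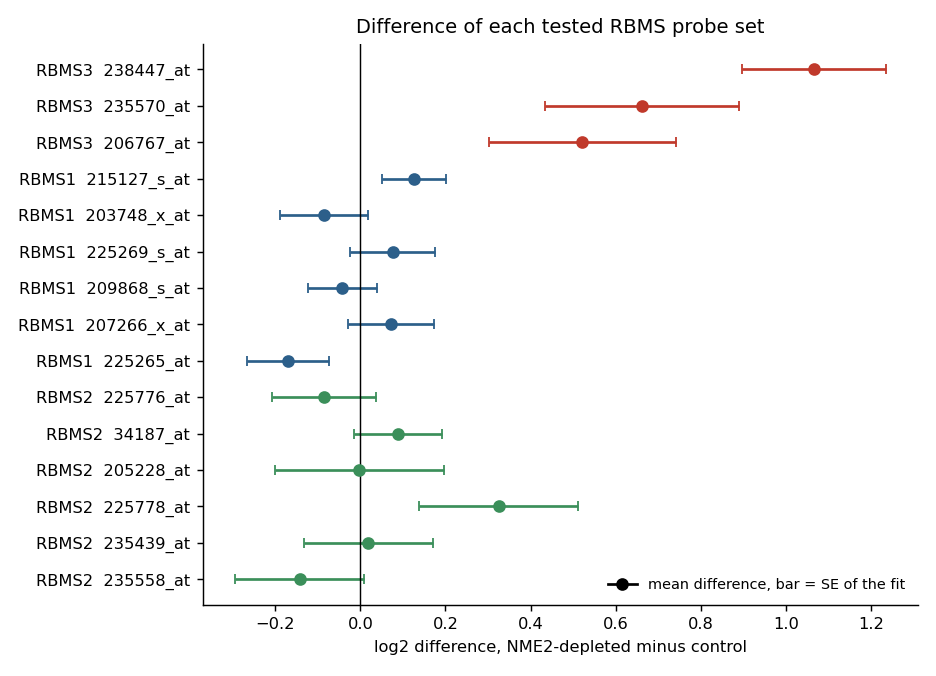
Log2 difference, NME2-depleted minus control, of the 15 tested RBMS probe sets (points) with the standard error of the fit (bars). The RBMS3 probe sets lie at 0.52 to 1.06, whereas those of RBMS1 and RBMS2 lie between -0.17 and 0.33.

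**Figure D4:**
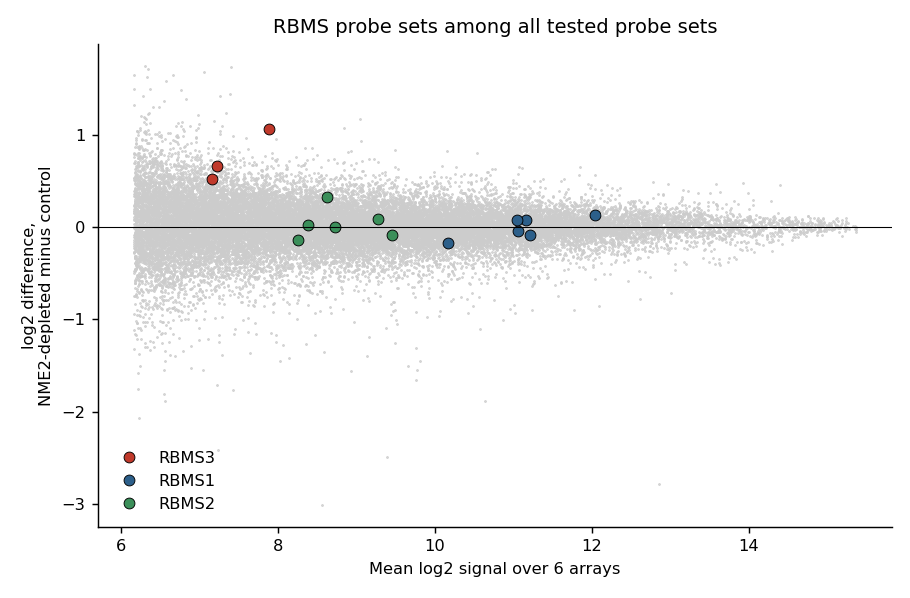
Log2 difference of the RBMS probe sets against their mean log2 signal over 6 arrays, with all 27307 tested probe sets in grey. The RBMS3 probe sets are in the dimmer part, where differences spread more widely, and 238447_at stands at 1.06.

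Genes with an array profile like that of RBMS3 were listed by the root mean square difference between centred log2 profiles over the 6 arrays, taken against 238447_at, among 12403 genes each represented by its brightest probe set. The closest were KLK1, tissue kallikrein, at 0.18, ETV1, an ETS transcription factor, at 0.18, CAPN8, a calpain protease, at 0.20, NCALD, a neuronal calcium sensor, at 0.21, and ARHGAP29 at 0.22. KLK1 had 130.3, 152 and 139 in NME2-depleted arrays, against 67.4, 80.4 and 94.8 in control arrays. ETV1 had 146.8, 178 and 218.8 in NME2-depleted arrays, against 80.4, 94.9 and 84.3 in control arrays. All 5 had groups apart, which is largely given by their choice for closeness to 238447_at and is no separate result. ARHGAP29 alone was bright, at 4400.8 to 4986.4 in NME2-depleted arrays and 2682.2 to 3097.6 in control arrays. The closest other RBMS3 probe set, 235570_at, was at 0.24, and 13 genes were nearer to 238447_at than that.

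Of the genes beside the RBMS loci, 1 of 6 tested was higher in NME2-depleted cells and 5 were lower. RBMS3-AS3, a non-coding transcript annotated next to RBMS3, was under the filter, with 62.8, 57.7 and 47.4 in NME2-depleted arrays, against 42.9, 53.3 and 16.9 in control arrays, and its groups overlapped. TGFBR2, the type II receptor for TGF-beta and a neighbour of RBMS3, had a log2 difference of -0.18 (SE 0.08, limma adjusted p = 0.359), opposite in sign to RBMS3. SPRYD4, which lies beyond GLS2 from RBMS2, had -0.34 (SE 0.12, adjusted p = 0.278). Next to RBMS1 the signalling adaptor TANK had 0.23, and beyond TANK the proteasome subunit PSMD14 had -0.08 (adjusted p = 0.497 and 0.644). GLS2, and ITGB6 on the other side of RBMS1, had no probe set assigned to a single symbol. Of the 6, 0 passed the limma threshold, where 0.54% of 12406 genes did, and 2 had an unadjusted p under 0.05, where 15% of all genes did. Groups were apart on 4 of the 6, TGFBR2, SPRYD4, PSMD14 and ATP5F1B, all lower, where groups were apart in either direction on 20.6% of genes.

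RBMS3 is a transcript of fibroblasts and other mesenchymal cells, so markers of fibroblasts were set beside it. The summed signal of 9 fibroblast markers was 1096.8 to 1348.6 in NME2-depleted arrays and 950.4 to 1206.7 in control arrays, which overlapped. Of the 9, COL1A2, COL3A1, PDGFRA, PDGFRB and FAP were under the filter, and 0 of the other 4 passed the threshold. Of those 4, 3 were higher and 1 lower, with a median log2 difference of 0.245, against 0.00064 over all genes. The markers under the filter had positive log2 differences on dim signals, from 0.34 for COL3A1 to 1.24 for COL1A2. DCN had 104.3, 78.2 and 146.6 in NME2-depleted arrays, against 73.8, 90.5 and 45.4 in control arrays, and LUM had 171.5, 301.5 and 209.5 in NME2-depleted arrays, against 168.5, 196.5 and 124.7 in control arrays. THY1 lay on the other side of 0, with 279.9, 239.4 and 190.3 in NME2-depleted arrays, against 336.3, 342.3 and 263.8 in control arrays (log2 difference -0.42, limma adjusted p = 0.381), and COL1A1 had a difference of 0.03. These 4 overlapped between groups. PDGFRA, a platelet-derived growth factor receptor of mesenchymal cells, was dim but apart, with 70.5, 66.2 and 59.2 in NME2-depleted arrays, against 54.1, 46.2 and 39.1 in control arrays. The summed signal of 5 endothelial markers was 286.4 to 394.6 in NME2-depleted arrays and 212.4 to 314.1 in control arrays, and that of 4 leukocyte markers was 314.7 to 443.4 in NME2-depleted arrays and 370.5 to 461.4 in control arrays. The part of these cell types in the RBMS3 difference was not tested.

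Of the reported partners and targets of RBMS proteins 0 of 12 tested members passed the limma threshold, where 0.54% of all genes did, with 7 higher and 5 lower. Their median log2 difference was 0.0072, against 0.00064 over all genes, and 2 of the 12 had an unadjusted p under 0.05, against 15% of all genes. SLC7A11, the cystine transporter whose translation RBMS1 has been reported to promote in lung cancer cells, had 12222.8, 13286.7 and 14448.5 in NME2-depleted arrays, against 9916.4, 12669.9 and 11158.2 in control arrays (log2 difference 0.25, SE 0.09, limma adjusted p = 0.305). CDKN1A, the reported RBMS2 target, had 7241.3, 5720.4 and 6167.1 in NME2-depleted arrays, against 8839.4, 6856 and 7463 in control arrays (-0.27, SE 0.11, adjusted p = 0.312). With the replicate number as a block, a pairing that the labels do not give, the limma adjusted p of CDKN1A was 0.0303. That block also raised the calls over all tested probe sets from 108 to 464. The catenin CTNNB1 and the matrix metalloproteinase MMP2 had 0.22 and -0.27 (adjusted p = 0.397 and 0.608). PRRX1, the reported RBMS3 target, was under the filter, with 21.5, 47 and 87.5 in NME2-depleted arrays, against 59, 77.6 and 36.2 in control arrays.

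Among other RNA-binding proteins ELAVL1 fell. ELAVL1, also called HuR, binds AU-rich elements through RNA recognition motifs and stabilises the messengers it binds. Its brightest probe set had 4450.6, 4247 and 3979.6 in NME2-depleted arrays, against 5759.5, 5569.4 and 5409.7 in control arrays, a log2 difference of -0.40 (SE 0.07, limma adjusted p = 0.0397). All depleted arrays lay below all control arrays. A second probe set, at 617.1, 703.1 and 707.4 in NME2-depleted arrays and 889.2, 993.7 and 774.9 in control arrays, had -0.39 (adjusted p = 0.194), and the dimmest tested one, at 117.5 to 121.8 in NME2-depleted arrays and 92 to 109.3 in control arrays, had 0.23 (adjusted p = 0.722), opposite in sign. The call was lost whichever array was left out, with adjusted p-values of 0.0813 to 0.136, while the difference stayed between -0.44 and -0.36. Over 19 alternatives with an adjusted p it ran between 0.012 and 0.265 and was under 0.05 in 10.

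ELAVL1 was the 1 member called, and lower, among 11 tested AU-rich element binding proteins and among 24 tested proteins with tandem RNA recognition motifs, lists that share it, where 0.395% of all genes were called lower. The AU-rich list had a median of 0.01, with 6 genes higher and 5 lower. In it ZFP36L1, which promotes decay of AU-rich messengers, had 0.18, PUM2 0.14 and ZFP36L2 -0.16 (adjusted p = 0.312, 0.424 and 0.523). The tandem list had a median of -0.06, with 7 higher and 17 lower. HNRNPA0 had 0.16, the translational regulator MSI2 -0.18 and HNRNPDL -0.16 (adjusted p = 0.354, 0.411 and 0.435). Of 36 tested genes with names beginning in RBM, 0 passed, 3 had an unadjusted p under 0.05, against 15% of all genes, and the median was 0.05, with 23 higher and 13 lower. The lowest p-values were those of the non-coding RBM33-DT (-0.85, adjusted p = 0.216), RBM19 (-0.33, 0.264), the cold-induced RBM3 (0.25, 0.346) and the splicing factor RBM22 (0.17, 0.398), where the log2 difference of RBM19 turned to 0.052 once probe sets shared between transcripts were left out.

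**Figure D5:**
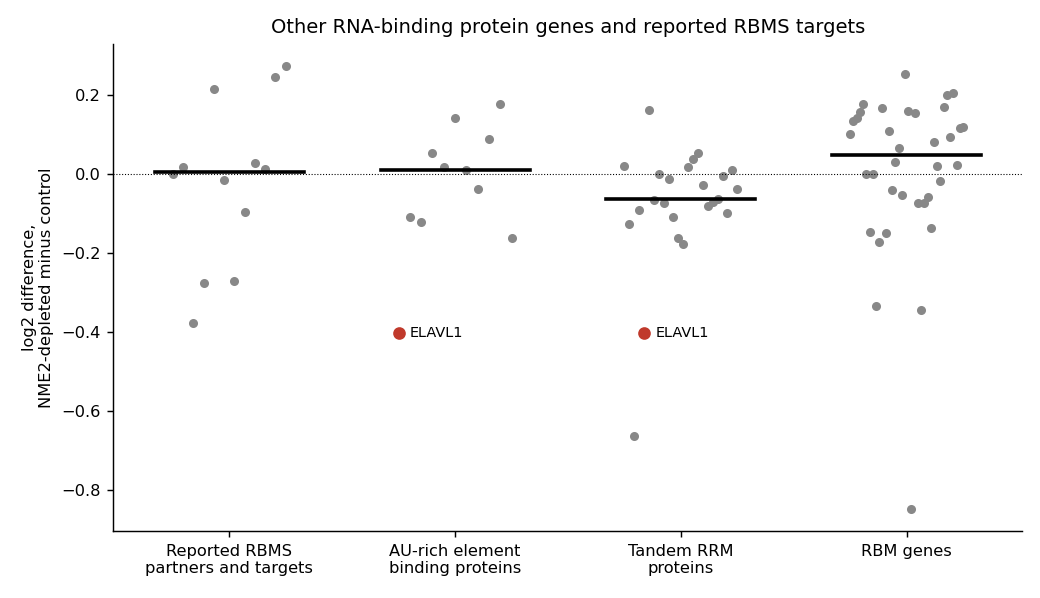
Log2 difference, NME2-depleted minus control, of the tested genes in 4 lists, with each gene as a point and the median as a black bar. ELAVL1, in red at -0.40, passed an adjusted p of 0.05 and stands in 2 of the lists, and the list medians lie between -0.06 and 0.05.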

How the data were processed

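The authors hybridised labelled cRNA to 1 array per sample, and the deposited values are signal intensity per probe set on a linear scale, for which the submitters' processing notes name GCOS 1.1.1. Array means, after trimming 2% at each end, were equal as deposited (500.06 to 500.07), with other settings not given in the sources used here. Arrays have no read depth, so precision is limited by their number. Different siRNA suppliers are named in the series text and in the methods, with no duplex sequence.

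Of 54675 probe sets 62 controls were left out. Signals under 1 were set to 1 (0.327% of values), log2 was taken with no further normalization, and the 27307 probe sets whose average log2 signal reached the median were tested. Differences, NME2-depleted minus control, were fitted with limma 3.58.1 in R 4.3.3 (lmFit, eBayes with intensity trend), with Benjamini-Hochberg adjustment across everything tested (two-sided). The fit was checked on simulated data. The annotation, of 2016, gave 1 symbol for 41091 probe sets and several for 1801. A gene is its brightest tested probe set. RBMS members and lists were chosen with earlier results of these data known. Named genes were all RBMS probe sets, NME2, called list members and otherwise up to 4 of lowest p, and the 5 nearest profiles; other names were chosen after their values were seen. An exact permutation test of 3 against 3 arrays cannot go below p = 0.1 and was not used. Alternatives were other scalings, floors, filters and variance models, leaving out each array, a block for replicate number, the methods' t-test and other gene summaries. Promoter sequences are from RefSeq, and all 3 genes matched.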

Additional observations from a re-analysis of the deposited data

How the results depend on the processing

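The difference of the brightest RBMS3 probe set was positive in all 20 alternatives that gave it a value and lay between 0.93 and 1.14, apart from the mean of all 7 probe sets, which gave 0.89. That mean takes in the 4 dim probe sets under the filter, at 0.09 to 2.11, where the 2.11 of 242137_at rests on a single control value. The tested 235570_at and 206767_at had smaller differences, 0.66 and 0.52. For the brightest probe set itself: when 1 array was left out its difference was 0.94 to 1.14. The count of RBMS probe sets past the threshold was 1. It was 0 with no filter, with no intensity trend and with Benjamini-Hochberg adjustment of the methods' t-test. It was also 0 without any 1 array (0 to 0), and with a filter at the 75th percentile, which left no RBMS3 probe set. With the unadjusted t-test it was 3 of 15, all of RBMS3, where 3065 of all 27307 tested probe sets passed. RBMS1 was 0.07 to 0.16 when 1 array was left out, but -0.17 without shared probe sets and -0.0041 as the mean of its probe sets. RBMS2 was -0.19 to -0.02 when 1 array was left out.

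Of all tested probe sets 108 passed, against 30 with no filter, 192 with the 75th percentile filter, 0 with no intensity trend (3521 had an unadjusted p under 0.05), 464 with the replicate block, 61 without shared probe sets, 3065 with the unadjusted t-test, 0 after its adjustment, and 19 to 70 with 1 array left out. NME2 kept its difference of -2.78 but missed the threshold with no intensity trend and with the adjusted t-test. ELAVL1, the 1 call in each of 2 lists, gave 0 with no filter, no intensity trend, the adjusted t-test and without any 1 array (0 to 0). With the unadjusted t-test 3 of 11 AU-rich, 2 of 24 tandem motif, 3 of 36 RBM and 2 of 6 neighbour genes were called. Among all tested probe sets it called 3065 of 27307. RBM19, at -0.33, turned to 0.052 without shared probe sets. The labels do not say that arrays of the same number belong together, so the main fit did not pair them. Deviations of same-numbered arrays correlated at 0.11, 0.08 and 0.07, and those of other pairs at -0.084 to 0.0053. Every array thus correlated best with its own number, and a pairing that the main fit ignores remains possible. With the replicate block the reported targets had 1 call, CDKN1A, instead of 0, and the block changed no other call on RBMS probe sets or lists.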
